A study of Rattus norvegicus with 6 samples.

Results

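Very long RNAs without an annotated gene were examined in 6 tissues of male Brown Norway (BN) rats, an inbred strain, aged 6 weeks. They were the transcripts of a deposited lncRNA table that carried no class code, meaning that the table related them to no reference gene, and that were 8000 bases or longer. Those whose mean FPKM reached 0.5 in all 6 tissues were left out, which removed 11 of 163, and a further 7 at 2 specified loci or in a specified interval of chromosome 6 were also left out. This left 145 transcripts at 99 loci, 8.42% of the 1722 unannotated transcripts and part of 2455 transcripts with values. FPKM is the number of sequenced fragments scaled by transcript length and library total, so levels of different transcripts can be set side by side. Because tissue means chose these transcripts, their spread over tissues is given as a description.

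The tissues were outer medulla, cortex, left ventricle, adrenal gland, hypothalamus and liver, with 1 sample per tissue and no treatment named in the labels. Each tissue had 2 FPKM columns, called column 1 and column 2, and paired values follow this order. Whether separate animals gave the 2 columns is not stated in the labels. A p-value here therefore reflects column-to-column spread alone, and that spread may be technical. The labels of outer medulla and cortex name no organ, and 1 column code was assigned to hypothalamus because it was the last tissue left, which everything said of hypothalamus depends on.

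Long non-coding RNAs are transcripts with no recognised protein-coding frame. Many are made at low level, by RNA polymerase II, and in few cell types, and some act on chromatin or on neighbouring genes while others have no known role. Very long ones can be spliced from exons spread over a wide locus or can be nearly unspliced copies of their whole locus. The table annotates no function for any of the 145 transcripts, and their sequences are not shown because no genome of the build used by the table, rn5, was at hand.

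The steps between low FPKM values implied a depth of 3869000 fragments in liver column 2, the shallowest, to 32070000 in hypothalamus column 2. An FPKM of 0.5 at 8000 bases then stood for 15.2 fragments in liver column 2 and 126 in hypothalamus column 2, with an assumed mean fragment of 140 bases. Of 35 listed tissue marker genes, 10 had a transcript in the table. Transcripts overlapping Afp, Mbl2, Slc27a5 and Akr1c12 were highest in liver, that of Slc12a1, a kidney salt transporter gene, in outer medulla, that of Cyp11b3 in adrenal gland, and those of Dlx6 and Snhg11 in hypothalamus. The Dlx6 transcript was low even there, at a mean of 0.422 FPKM in hypothalamus. A transcript at Fga, a liver gene, was listed at 0 in liver and highest in adrenal gland. One at Myl1, a muscle gene, was at means of 34.3 FPKM in cortex, 33.5 FPKM in adrenal gland and 19.7 FPKM in left ventricle. The part of these markers in the results below was not tested.

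The 145 transcripts were 8002 to 52801 bases long, with a median of 11002 bases, and 17 reached 20000 bases. They lay on 21 chromosomes, with 14 on chromosome 8, 13 on chromosome 1, and 11 each on chromosomes 3 and 19. For 53 of them no other transcript was listed at the locus. Among these 53, the transcript length was at least 90% of the locus span for 19, which leaves little room for introns, and under 10% of it for 13, whose exons would make up a small part of the span. At the other end, 28 loci held 2 or more of the very long transcripts, 74 in all, and members of one locus are not independent of each other.

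Most of the very long transcripts were low. At a mean FPKM of 0.5 or more, 110 were detected in at least 1 tissue, 13 reached 5 FPKM and 2 reached 10 FPKM, both in liver. Cortex had the most detected, with 45, followed by outer medulla with 41 and liver with 34. Adrenal gland had 32, left ventricle 30 and hypothalamus 25. In that order these were 31.0, 28.3, 23.4, 22.1, 20.7 and 17.2% of the 145. Over all 2455 transcripts with values the shares were 32.5, 31.1, 27.9, 26.6, 24.9 and 20.1%. The tissue order was thus the same over all transcripts and is not particular to the very long ones. This order depended on the scaling: after each tissue was rescaled, hypothalamus had the most, with 44, followed by cortex with 40, liver with 35, and 30 each in outer medulla, left ventricle and adrenal gland. Among the 110, 58 were detected in exactly 1 tissue, 27 in 2, 13 in 3, 4 in 4 and 8 in 5. The share detected in exactly 1 tissue was 52.7% of the detected very long transcripts and 57.0% of the 1168 detected shorter unannotated transcripts under the same FPKM rule. In whole tissue, fewer cells that make a transcript and less of it per cell cannot be told apart.

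Of the 27 transcripts detected in 2 tissues, 15 were detected in outer medulla and cortex. The next most frequent combination, adrenal gland with hypothalamus, had 3 and each other had at most 2. These combinations were not counted over all transcripts, so none is said to be particular to the very long ones. The remaining 35 of the 145 were detected in no tissue, with highest tissue means of 0 to 0.497 FPKM and a median of 0.248 FPKM, and 21 of these lay at loci where another transcript was detected.

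**Figure D1:**
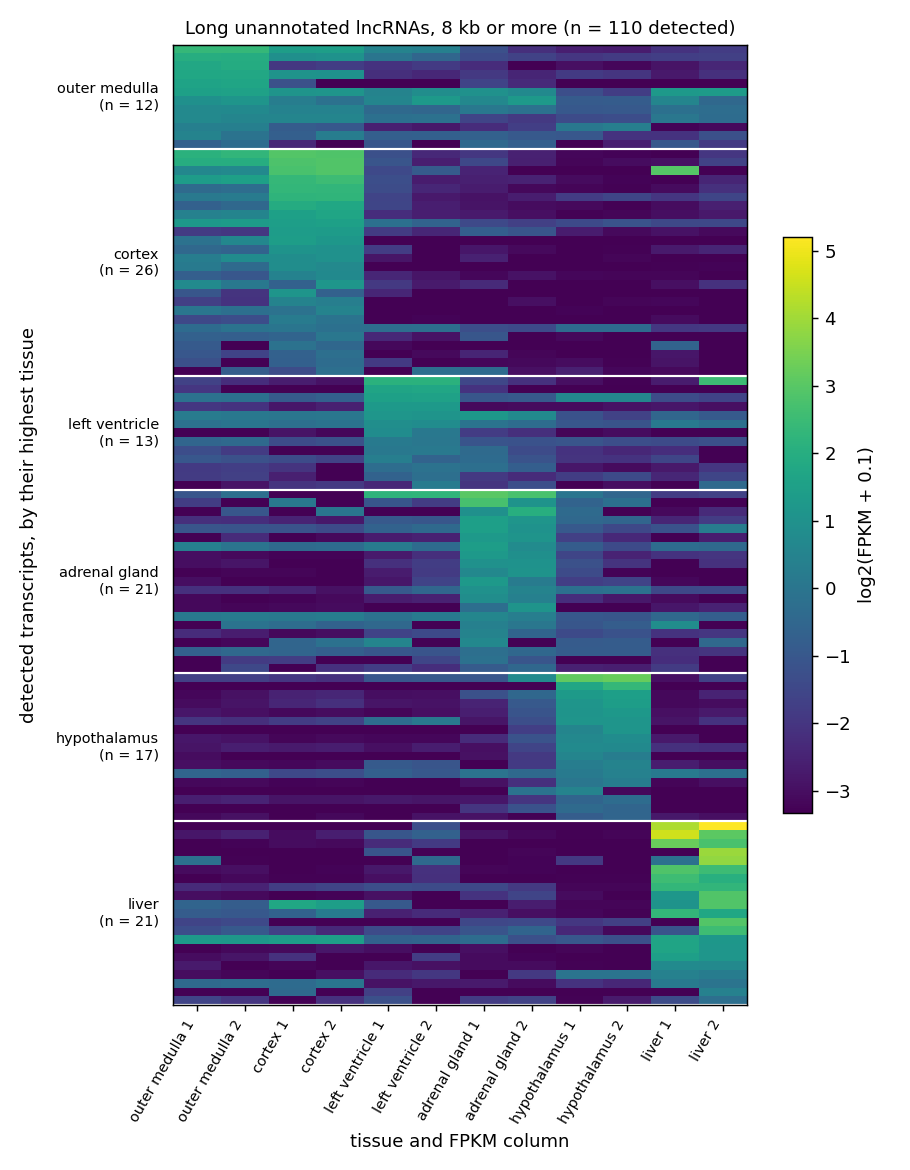
Levels of the 110 detected very long transcripts (rows, grouped by the tissue of their highest mean and ordered by that mean) in the 12 FPKM columns, coloured as log2(FPKM + 0.1). Outer medulla and cortex rows are bright in both of these tissues, while most hypothalamus and liver rows are bright in 1 tissue, and several liver rows are bright in a single liver column.

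Tau, a score that is 0 for equal levels in all tissues and 1 for a level in a single tissue, had a median of 0.851 over the very long transcripts and 0.854 over the shorter ones. By their tissue of highest mean, the detected very long transcripts split into 26 for cortex, 21 each for adrenal gland and liver, 17 for hypothalamus, 13 for left ventricle and 12 for outer medulla. The step from the highest to the next tissue differed among these groups. On the FPKM + 0.1 scale its median was 12.4-fold for liver transcripts, 5.07-fold for hypothalamus, 3.09-fold for adrenal gland, 1.99-fold for cortex, 1.77-fold for left ventricle and 1.24-fold for outer medulla. Liver transcripts also had the highest median level in their own tissue, 4.09 FPKM, against 1.32 to 2.38 FPKM for the other groups. Several liver means rested mostly on 1 column, such as that of TCONS_00006739 at 0.000576 and 15.0 FPKM. These medians were not taken over all transcripts, so the lead of liver is not said to be particular to the very long ones.

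With limma on log2(FPKM + 0.1), a transcript was called restricted when the tissue of its highest mean was above every other tissue, all 5 at an adjusted p below 0.05 (Benjamini-Hochberg over 1269 transcripts at a mean of 1 FPKM or more). Of the 84 very long transcripts tested, 50 at 42 loci were called restricted (59.5%), beside 45.7% of all transcripts tested and 401 of 763 shorter unannotated transcripts (52.6%). At an unadjusted p below 0.05 the count was 56. Because the choice of transcripts by their tissue means bears on this comparison, nothing is read from the difference between these shares. In all 50, both columns of the highest tissue lay above each of the other 10 columns, and the median step to the next tissue was 7.36-fold on the FPKM + 0.1 scale.

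By tissue, the calls were 11 for cortex (6.46% of all transcripts tested), 11 for hypothalamus (5.75%), 11 for liver (13.3%), 9 for adrenal gland (9.3%), 5 for left ventricle (8.04%) and 3 for outer medulla (2.84%), the percentages being those over all 1269. The cortex count fell to 7 without cortex column 1 and the left ventricle count to 3 without left ventricle column 1. With a pseudocount of 0.01 in place of 0.1, 29 of the very long transcripts were called. When outer medulla and cortex were averaged into 1 tissue, 19 of 79 at 14 loci were restricted to it (24.1%), beside 12.8% of 1152 transcripts, and 11 of the 19 were also restricted to outer medulla or cortex when kept apart.

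The 2 most abundant very long transcripts were liver transcripts of 1 locus on chromosome 3 (XLOC_044805, chr3:148660323-148680168). TCONS_00072312, of 8795 bases, stood at 17.9 and 36.8 FPKM in liver, and its highest value in the other 10 columns was 0.313 FPKM in left ventricle column 2. TCONS_00072313, of 8347 bases, stood at 24.0 and 8.22 FPKM in liver and at 0.381 and 0.520 FPKM in left ventricle, the next tissue. The 2 liver columns ranked the transcripts in opposite order, while their sum was 41.9 and 45.0 FPKM.

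Another locus with liver transcripts, XLOC_044807, began 9598 bases after the end of this one. Its TCONS_00072315, of 9679 bases, was at 7.15 and 5.60 FPKM in liver, and TCONS_00072321, of 18522 bases, at 5.79 and 4.06 FPKM. No other column exceeded 0.132 FPKM for the first and 0.128 FPKM for the second, both in left ventricle column 2. On chromosome 8, TCONS_00103543 (8226 bases, chr8:33970014-34029231) was at 9.41 and 6.63 FPKM in liver and at 0.109 and 0.173 FPKM in left ventricle. All 5 of these transcripts were called restricted to liver, and left ventricle was the next tissue of each.

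In hypothalamus the most abundant was TCONS_00011510, a transcript of 22927 bases that covered 9.89% of its locus (chr1:202065868-202297719). It was at 8.65 and 9.16 FPKM in hypothalamus, at 0.381 and 1.60 FPKM in adrenal gland and at 0.420 FPKM or less in the other 8 columns. The longest transcript of all, TCONS_00003574, had 52801 bases, 99.9% of the span of its locus (chr1:161418554-161471416), and was alone there. It was at 2.04 and 2.24 FPKM in hypothalamus, at 0.0637 and 0.365 FPKM in adrenal gland and below 0.05 FPKM in the other 8 columns. Adrenal gland column 2 was thus the highest value outside hypothalamus for both.

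A locus on chromosome 12 (XLOC_015972, chr12:52194506-52215839) gave 4 very long transcripts of 8428 to 8744 bases, 3 of them highest in hypothalamus. TCONS_00026703 was at 3.18 and 5.04 FPKM in hypothalamus and at no more than 0.000677 FPKM in any of the other 10 columns. TCONS_00026702 was at 1.36 and 2.09 FPKM in hypothalamus and 0.202 FPKM in adrenal gland column 2. TCONS_00026701 was at 1.30 and 0.0135 FPKM in hypothalamus and 0.852 FPKM in adrenal gland column 2, and the sum of the 4 was 5.86 and 7.15 FPKM in hypothalamus. Among hypothalamus transcripts alone at their locus, TCONS_00042184 (22750 bases, chromosome 16) was at 2.40 and 2.68 FPKM there, against 0.333 and 0.619 FPKM in adrenal gland. For TCONS_00047459 (12043 bases, chromosome 17) the values were 2.09 and 2.56 FPKM in hypothalamus and 0.0813 and 0.427 FPKM in adrenal gland.

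The pattern of adrenal gland column 2 recurred over the list. For 10 very long transcripts high in hypothalamus, the level in adrenal gland column 2 was a median 16.0% of the hypothalamus mean, against 3.03% in adrenal gland column 1. For 10 high in adrenal gland, the level in hypothalamus column 1 was a median 12.5% of the adrenal gland mean, against 4.22% in hypothalamus column 2. When hypothalamus column 1 and adrenal gland column 2 were both dropped, 47 of the very long transcripts were called restricted, against 50 with all columns. The counts for hypothalamus and adrenal gland stayed at 11 and 9, while cortex fell from 11 to 7 and outer medulla rose from 3 to 4. The part of these columns in the low levels seen across the 2 tissues was not tested.

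Adrenal gland transcripts were led by TCONS_00105264 (9368 bases, chr8:104030351-104141457), at 8.10 and 6.61 FPKM in adrenal gland and at 4.58 and 4.68 FPKM in left ventricle. It was listed at 0 and 0.000254 FPKM in cortex, so that it combined a high level in 2 tissues with almost none in another. TCONS_00065922, of 10822 bases, was at 2.74 and 2.07 FPKM in adrenal gland, against 0.644 and 0.595 FPKM in hypothalamus. The other 8 transcripts restricted to adrenal gland had adrenal gland means of 1.40 to 2.32 FPKM. The 9 came from 9 different loci, some of which, such as that of TCONS_00065922, also held other transcripts.

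Of the transcripts with their highest mean in left ventricle, the most abundant was TCONS_00018372, a transcript of 27395 bases on chromosome 10, at 4.29 and 4.27 FPKM. Its second liver column was higher still, at 5.60 FPKM, while liver column 1 was at 0.0578 FPKM. TCONS_00114421 (15840 bases, chromosome X) was at 3.08 and 3.23 FPKM in left ventricle, and its highest value elsewhere was 0.154 FPKM in outer medulla column 1. TCONS_00039470 (9797 bases, chr16:806604-1061543) was at 2.29 and 2.33 FPKM in left ventricle and at 0.162 FPKM or less elsewhere. TCONS_00100784 (22989 bases, 99.7% of its locus on chromosome 8) was at 2.79 and 2.84 FPKM in left ventricle and at 1.43 and 1.41 FPKM in hypothalamus, a smaller step. Its locus lay 59 bases from that of TCONS_00100780, which overlaps the annotated gene ENSRNOG00000041330. TCONS_00100780 had similar values, 2.82 and 2.56 FPKM in left ventricle and 1.29 and 1.40 FPKM in hypothalamus.

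Outer medulla and cortex shared most of their leading transcripts. TCONS_00059547 (25608 bases over a locus of which it covers 4.64%, chr2:137079544-137631324) was at 4.98 and 5.05 FPKM in outer medulla, against 2.61 and 2.67 FPKM in cortex. TCONS_00091268 (20124 bases, chromosome 6) was at 4.24 and 4.76 FPKM in outer medulla, against 7.49 and 7.21 FPKM in cortex. TCONS_00108810 (11073 bases, chromosome 9) was at 3.83 and 3.91 FPKM in outer medulla, against 7.01 and 7.36 FPKM in cortex. In each of the 3 the columns of the 2 tissues did not overlap. The adjusted p of limma for outer medulla minus cortex was 0.11, 0.41 and 0.39. This fit took the spread from the columns of all tissues, including tissues with low values. Adrenal gland was at 0.325 and 0.121 FPKM for TCONS_00059547. Left ventricle was at 0.320 and 0.0999 FPKM for TCONS_00091268 and at 0.370 and 0.0645 FPKM for TCONS_00108810. These adjusted p therefore do not set the difference against the outer medulla and cortex columns alone. The second longest transcript, TCONS_00048875 with 39024 bases on chromosome 18, was nearly equal in the 2 tissues, at 2.27 and 2.46 FPKM in outer medulla and 2.65 and 2.78 FPKM in cortex.

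**Figure D2:**
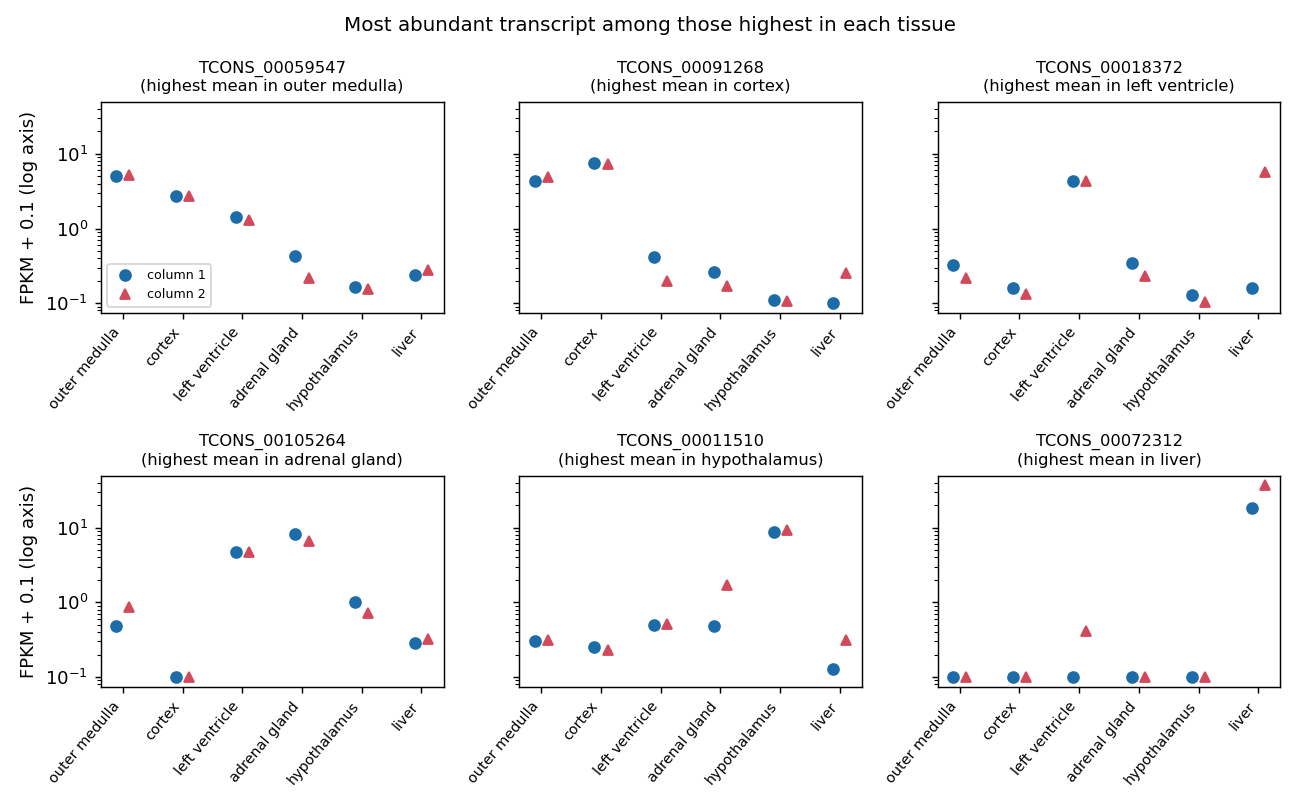
FPKM + 0.1 (log axis) in the 6 tissues, for the most abundant of the very long transcripts that had their highest mean in each tissue, with circles for column 1 and triangles for column 2. TCONS_00059547 and TCONS_00091268 are high in both outer medulla and cortex, TCONS_00105264 in adrenal gland and left ventricle, and the liver columns of TCONS_00018372 lie at 0.0578 and 5.60 FPKM.

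Outer medulla was compared with cortex for 35 very long transcripts. Each had a mean below 0.5 FPKM in another tissue and so met the selection rule whatever its level in these 2. At an adjusted p below 0.05 (limma, Benjamini-Hochberg over 604 transcripts at a mean of 1 FPKM or more in either tissue), 13 of the 35 differed (37.1%), beside 21.4% of all 604. The unadjusted p was below 0.05 for 17. Higher in outer medulla were 4, beside 6.95% of all, and lower were 9, beside 14.4% of all. Entry needed 1 FPKM in either tissue, and a transcript that entered through 1 tissue alone had to be higher there, so nothing is read from these counts. Of the 18 that reached 1 FPKM in both tissues, 1 was higher and 3 were lower in outer medulla, of the 7 through outer medulla alone 3 were higher, and of the 10 through cortex alone 6 were lower. After each tissue was rescaled, 2 were higher and 9 lower in outer medulla, and with a pseudocount of 0.01 the counts were 0 higher and 1 lower. With the spread taken from the outer medulla and cortex columns alone, 6 were higher and 13 lower.

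The largest differences toward outer medulla came from a locus on chromosome 11 (XLOC_014908, chr11:76583571-76592959) in which each transcript covers over 90% of the span. TCONS_00024834, of 9077 bases, was at 2.97 and 3.13 FPKM in outer medulla, against 0.334 and 4.61e-05 FPKM in cortex, a log2 difference of 3.92 ± 0.60 (SE, limma adjusted p = 0.0023). TCONS_00024835, of 8764 bases, was at 3.33 and 3.70 FPKM in outer medulla, against 0.162 and 0.190 FPKM in cortex (3.71 ± 0.39, limma adjusted p = 3.6e-04). The columns did not overlap for either, and both passed with any column left out. With a pseudocount of 0.01 their adjusted p was 0.0505 and 0.0649. The remaining transcript of the locus, TCONS_00024833, went the other way, with at most 0.000166 FPKM in outer medulla, against 0.217 and 0.464 FPKM in cortex, and was too low to be tested.

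Smaller differences in the same direction were less firm. TCONS_00004641 (17051 bases, chromosome 1) was at 1.18 and 1.19 FPKM in outer medulla, against 0.454 and 0.408 FPKM in cortex (log2 difference 1.28 ± 0.31 SE, limma adjusted p = 0.021). It was also at 0.971 and 1.16 FPKM in hypothalamus. TCONS_00093014 (10058 bases, chromosome 6) was at 3.91 and 3.82 FPKM in outer medulla, against 1.79 and 1.96 FPKM in cortex (1.01 ± 0.29, limma adjusted p = 0.043). TCONS_00004641 missed the threshold without any 1 of the 4 outer medulla and cortex columns (adjusted p up to 0.0939). TCONS_00093014 missed it without any of these 4 or either hypothalamus column (adjusted p up to 0.163).

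Lower in outer medulla, the largest difference was that of TCONS_00052345, a transcript of 15055 bases alone at chr19:71928425-71954873. It was at 0.178 and 0.158 FPKM in outer medulla, against 2.51 and 2.47 FPKM in cortex (log2 difference -3.27 ± 0.33 SE, limma adjusted p = 2.8e-04). It was the 1 transcript still called lower at a pseudocount of 0.01, with an adjusted p of 0.0209. Its next tissue after cortex was adrenal gland, at 0.489 and 0.371 FPKM.

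On chromosome 8, the 3 very long transcripts of locus XLOC_065255 (chr8:107912525-107966013) were all lower in outer medulla. TCONS_00105357, of 34079 bases, was at 0.675 and 0.725 FPKM in outer medulla, against 4.87 and 4.77 FPKM in cortex (log2 difference -2.62 ± 0.46 SE, limma adjusted p = 0.0044). TCONS_00105353, of 9677 bases, was at 0.529 and 0.636 FPKM in outer medulla, against 3.67 and 3.27 FPKM in cortex (-2.39 ± 0.39, limma adjusted p = 0.0033). TCONS_00105352, of 26941 bases, was at 0.203 and 0.137 FPKM in outer medulla, against 1.31 and 1.14 FPKM in cortex (-2.30 ± 0.23, limma adjusted p = 3.1e-04). The 3 thus kept a similar ratio between the tissues at levels that differed among them, although transcripts of 1 locus share reads.

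TCONS_00101362 (11767 bases over a locus of which it covers 3.35%, chr8:69568259-69919240) was at 1.0 and 1.07 FPKM in outer medulla, against 4.52 and 4.64 FPKM in cortex (log2 difference -2.04 ± 0.42 SE, limma adjusted p = 0.0094). Its adjusted p lay between 0.0519 and 0.0597 without either cortex column or without outer medulla column 1. The other 4 that were lower in outer medulla were 3 transcripts of a locus on chromosome 2 (XLOC_035660) and TCONS_00046332 on chromosome 17, with log2 differences of -1.54 to -1.05. Without cortex column 1, 5 very long transcripts were called lower in outer medulla, and 2 were called higher without any 1 of the 4 columns of the compared tissues.

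**Figure D3:**
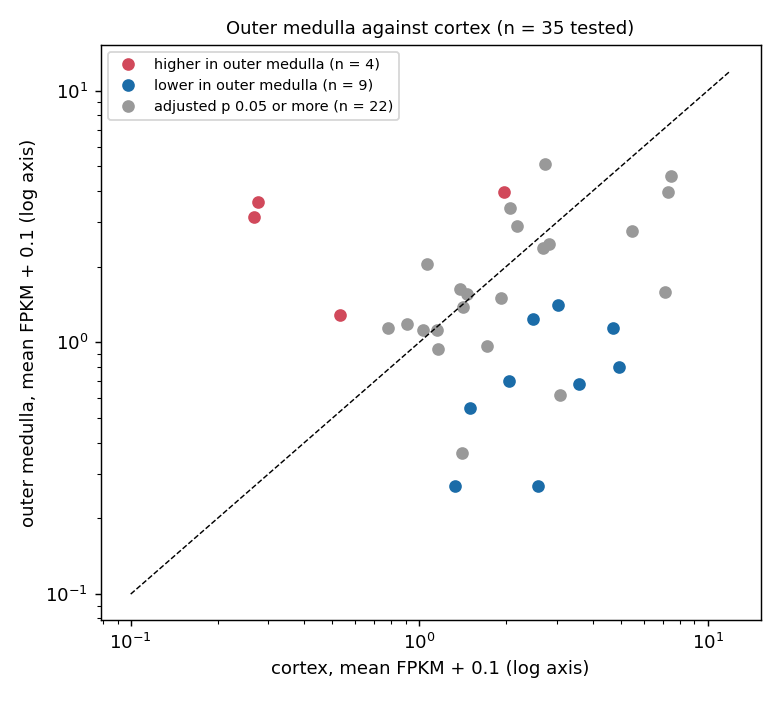
Mean FPKM + 0.1 of the 35 very long transcripts tested, outer medulla on the vertical and cortex on the horizontal axis (both log axes), with the line of equal levels. Red points were higher in outer medulla (4), blue points lower (9) and grey points did not pass an adjusted p of 0.05 (22), some of which lie as far from the line as called ones.

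A few very long transcripts were broad. The lowest tau at a mean of 1 FPKM or more belonged to TCONS_00108134, TCONS_00051991 and TCONS_00036826, at 0.285, 0.305 and 0.328, and each was below 0.5 FPKM in hypothalamus alone. TCONS_00051991 (9298 bases, 99.2% of its locus on chromosome 19) was at 0.408 and 0.389 FPKM in hypothalamus and at tissue means of up to 1.27 FPKM elsewhere, highest in adrenal gland. TCONS_00036826 (8204 bases, chromosome 15) was at 0.311 and 0.193 FPKM in hypothalamus, at 2.78 and 2.82 FPKM in outer medulla and at 2.28 and 2.44 FPKM in liver.

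Closest inside the rule that left out broad transcripts, the lowest tissue means were 0.399, 0.415 and 0.451 FPKM. Closest outside it, they were 0.516, 0.547 and 0.632 FPKM. Around the length rule, the shortest transcripts kept had 8002, 8024 and 8204 bases and the longest left out had 7721, 7758 and 7851 bases. The rule was applied to transcripts, and 16 of those kept lay at 8 loci whose summed FPKM was 0.5 or more in all 6 tissues. TCONS_00108134 is among these. A second transcript of its locus, TCONS_00108135, has the same length of 12898 bases and the same FPKM in 6 of 12 columns, and together they had means of 0.902 FPKM in hypothalamus to 2.64 FPKM in adrenal gland.

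At 21 loci, 2 or more very long transcripts were detected. At 13 of these the transcripts had their highest mean in the same tissue, and at 8 they did not. On chromosome 8, TCONS_00105264, high in adrenal gland and left ventricle, shares locus XLOC_065195 with TCONS_00105265, of 9399 bases. TCONS_00105265 was at 1.71 and 1.52 FPKM in cortex and at 1.05 and 0.675 FPKM in outer medulla, and all 4 columns of left ventricle and adrenal gland listed it at 0. Outer medulla had both forms, since TCONS_00105264 was at 0.381 and 0.768 FPKM there. The sum of the 2 transcripts was 1.43 and 1.44 FPKM in outer medulla, so the columns there differed in the split and hardly in the sum. Transcripts of almost the same length at 1 locus were thus listed in nearly opposite sets of tissues. The part of how reads shared by the 2 were assigned, also in the listed zeros, was not tested.

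Locus XLOC_070730 on chromosome X (chrX:142573297-142607706) held 3 very long transcripts of 15301 to 15840 bases. TCONS_00114421 was listed in left ventricle, as above, with 0.138 and 0 FPKM in adrenal gland. TCONS_00114420 was at 6.58 and 2.01 FPKM in adrenal gland and TCONS_00114419 at 1.85 and 3.99 FPKM, so that the columns ranked this pair in opposite order. The sum of the 3 was 8.57 and 6.00 FPKM in adrenal gland and 3.47 and 3.42 FPKM in left ventricle. After summing over the locus, left ventricle was therefore no longer the highest tissue of TCONS_00114421.

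**Figure D4:**
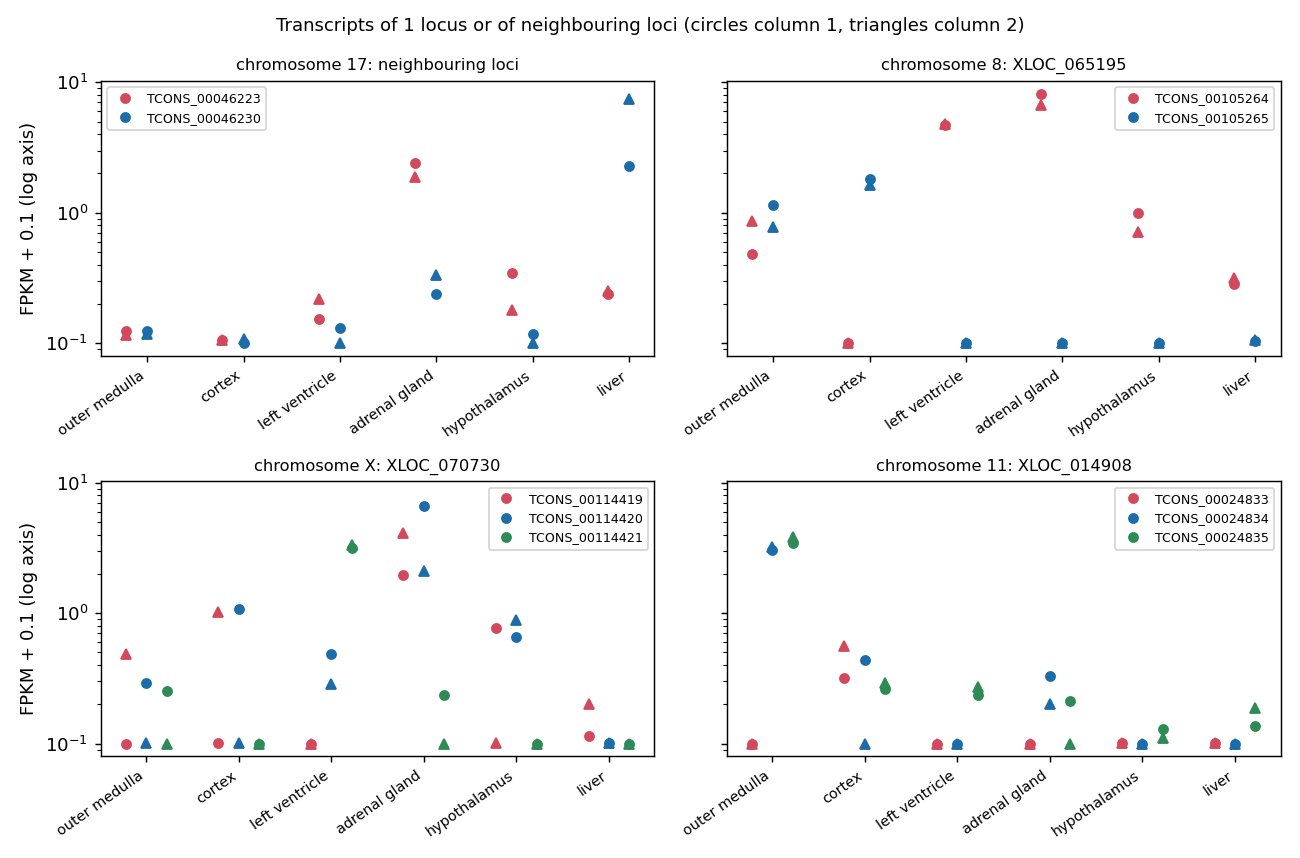
FPKM + 0.1 (log axis) by tissue for very long transcripts of neighbouring loci on chromosome 17 and of 3 loci on chromosomes 8, X and 11, with circles for column 1 and triangles for column 2. On chromosome 17 one transcript is high in adrenal gland and its neighbour in liver, and at XLOC_065195 and XLOC_070730 transcripts of 1 locus are high in different tissues.

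There were 4 pairs of loci with very long transcripts within 100 kb of each other. These and the transcripts beside named genes were chosen for their position after their values were seen. On chromosome 17, loci XLOC_028464 and XLOC_028469 are 3908 bases apart and each holds a sole transcript. TCONS_00046223 (10128 bases) was at 2.30 and 1.79 FPKM in adrenal gland and at 0.138 and 0.152 FPKM in liver. TCONS_00046230 (9703 bases) was at 2.19 and 7.31 FPKM in liver and at 0.140 and 0.233 FPKM in adrenal gland. Adjacent transcripts were thus high in different tissues here, while at XLOC_044805 and XLOC_044807 on chromosome 3 all 4 were highest in liver.

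For 11 of the 99 loci, a transcript assigned to a named gene was listed within 20 kb. Only genes with a transcript in the deposited lncRNA table could be found this way. Whether other genes lie near the remaining loci was not examined. TCONS_00013936 (12125 bases, 98.5% of its locus, chr1:287949285-287961598) lay 1609 bases from the interval of a transcript antisense to Emx2, a homeobox gene needed in mouse for the urogenital tract and forebrain. It was at 3.30 and 3.36 FPKM in outer medulla, at 1.98 and 1.94 FPKM in cortex and at 0.173 FPKM or less in the other 8 columns.

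TCONS_00039470, the left ventricle transcript described above, shared its interval with a transcript antisense to Spin1. That antisense transcript was at 5.59 and 2.22 FPKM in left ventricle and at 0.159 FPKM or less elsewhere. The very long transcripts sharing an interval with Mir29b-1 (TCONS_00074393) and Mir221 (TCONS_00110482) were not detected, with highest means of 0.0535 FPKM in left ventricle and 0.497 FPKM in hypothalamus. The library kit keeps strand, but whether the values were made with it is not stated, so values of overlapping transcripts on opposite strands are uncertain.

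The 2 columns of a tissue stood closer together for very long transcripts than for shorter ones. Over tissue values of 0.5 FPKM or more, the median absolute log2 difference between columns was 0.254 for 207 values of very long transcripts (1.19-fold), against 0.516 for 2108 values of shorter unannotated transcripts (1.43-fold). Within 0.5 to 2 FPKM, where levels are alike, the medians were 0.278 and 0.565. By tissue, at 0.5 FPKM or more, they were closest in adrenal gland, at 0.453 and 0.526. They were furthest apart in left ventricle, at 0.138 and 0.625. The median did not fall steadily with length, being 0.381 at 2 to 4 kb and 0.430 at 4 to 8 kb. The share of values 4-fold or more apart was 5.80% for the very long transcripts and 11.3% for the shorter ones. Listed zeros made up 15.8% of all values of very long transcripts, against 24.0% at 4 to 8 kb, 29.5% at 2 to 4 kb, 37.3% at 1 to 2 kb and 44.2% under 1 kb. At a given FPKM a longer transcript has more fragments, and its part in these differences was not tested.

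**Figure D5:**
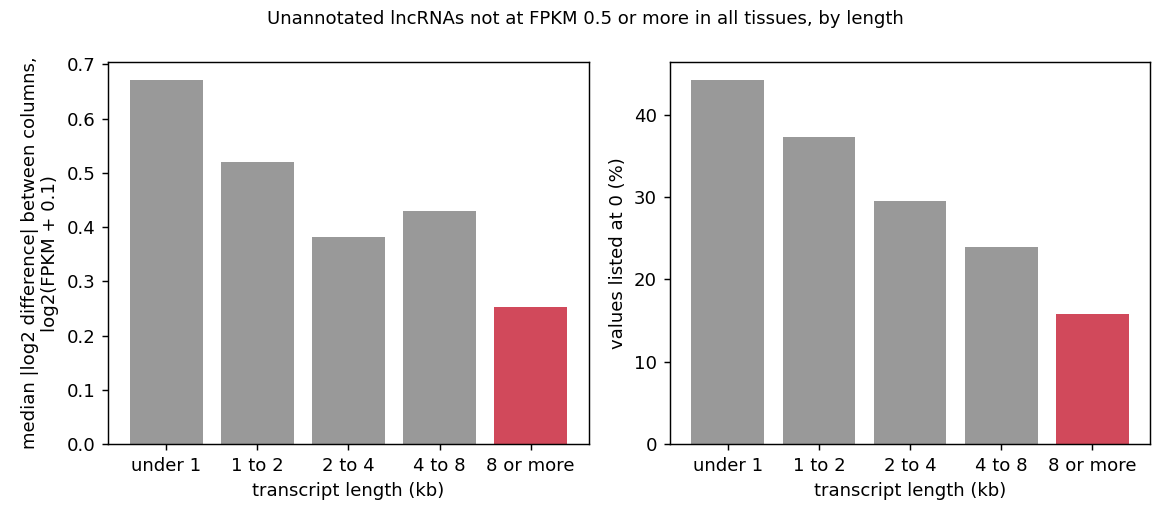
Unannotated transcripts under the same FPKM rule by length class (kb): left, median absolute log2 difference between the 2 columns of a tissue for values at 0.5 FPKM or more; right, percent of all values listed at 0. The class of 8 kb or more has the lowest bar in both, 0.254 and 15.8%.

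Among the very long transcripts, the closeness of the columns went with how many transcripts a locus held. The median difference was 0.144 for the 53 alone at their locus and 0.366 for the 92 that shared it. It was 0.105 for the 17 of 20000 bases or more, 15 of which were detected, with a median highest mean of 2.82 FPKM. Of those 15, 5 were highest in cortex, 3 in hypothalamus, 3 in left ventricle, 2 in outer medulla and 2 in liver, and 6 were called restricted. Of the 25 tested at 8 to 10 kb, 21 were called restricted, and of the 44 tested at 10 to 20 kb, 23 were. The share called was 45.7% of all transcripts tested and 52.6% of the shorter unannotated ones. Tissue means chose the very long transcripts and some share a locus, so nothing is read from these counts by length.

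The columns stood 4-fold or more apart for 12 tissue values of very long transcripts, and 8 of these were in liver, the tissue with the shallowest column. Column 2 was higher in 6 of the 8 and column 1 in 2. TCONS_00006739 (20829 bases, alone at chr1:284008199-284029719) was at 0.000576 and 15.0 FPKM in liver, which stand for 0.144 and 1203 implied fragments. TCONS_00021771 (20548 bases, alone at chr11:19762010-19784345) was at 0.00215 and 7.53 FPKM, which stand for 0.532 and 595 implied fragments. A transcript antisense to Mir3588, 3940 bases from it, was likewise listed at 0 and 24.0 FPKM in liver. Both transcripts were thus under the floor of 3 fragments in the deeper liver column and at 595 or more in the shallower one.

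In the opposite direction, TCONS_00072878 (11989 bases, chromosome 3) was at 7.68 and 0 FPKM in liver, beside 1.45 and 1.53 FPKM in outer medulla and 6.72 and 7.35 FPKM in cortex. At its locus, TCONS_00072875 was at 1.99 and 7.28 FPKM in liver, and the 3 very long transcripts there summed to 10.6 and 7.28 FPKM. At XLOC_065342 on chromosome 8, TCONS_00105500 was at 0.806 and 14.1 FPKM and TCONS_00105501 at 1.71 and 0.000952 FPKM in liver. Their sum was 2.52 and 14.1 FPKM in liver and 0.819 and 0.851 FPKM in outer medulla, where each was listed in a different column. At this locus the sum was close between the outer medulla columns and not between the liver columns.

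The very long transcripts made up 1.23 to 2.77% of the summed FPKM of all transcripts in the table, by column. Weighted by length, which is closer to a share of reads, they made up 3.88 to 10.6%, lowest in adrenal gland column 1 and highest in hypothalamus column 2. Cortex, hypothalamus and liver columns lay between 7.68 and 10.6%, outer medulla at 6.56 and 6.45%, and left ventricle and adrenal gland between 3.88 and 4.35%.

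For the most abundant of the very long transcripts with their highest mean in each tissue, the transcript of another locus with the most similar profile over the 12 columns was identified by Pearson r of log2(FPKM + 0.1). That of TCONS_00059547 in outer medulla was TCONS_00093014, itself very long (r = 0.980). The liver transcript TCONS_00072312 was matched by TCONS_00090572 of 849 bases (r = 0.9996), and the cortex transcript TCONS_00091268 by TCONS_00076996 of 14498 bases (r = 0.998), which overlaps an annotated gene. TCONS_00011510 in hypothalamus was matched by TCONS_00113683 of 31358 bases, which overlaps Mir384 (r = 0.973). The best values in adrenal gland and left ventricle were 0.917 and 0.896. The 12 columns are 6 tissues with 2 columns each, so r is a description of a shared tissue profile.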

How the data were processed

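RNA of 6 tissues was sequenced from total RNA extracted with TRIzol and made into libraries with a stranded TruSeq kit, per the labels' protocols. Per the submitters' processing notes, reads were handled with bcl2fastq 2.15.0 and the build is rn5. The labels leave the aligner, the quantifying program and the strand setting not stated. The authors deposited FPKM values for transcripts selected as lncRNAs, and transcript length in bases as another, separate deposited quantity, per the file headers. Coordinates are locus intervals on rn5 as listed, with no statement on 0-based or 1-based starts.

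Of 2458 transcripts, 3 without values were left out. Tests used limma 3.58.1 in R 4.3.3 with a mean-variance trend on log2(FPKM + 0.1), tissue as the factor over 12 columns, and other steps Python 3.11.15 with NumPy 2.4.6 and pandas 2.3.3. The added 0.1 understates changes of low transcripts. The restricted call takes the largest p of the 5 comparisons of the highest tissue. Tau used log2(FPKM + 1). Without read counts in use, no count test was run. Depth came from FPKM steps of transcripts alone at their locus, with 84.5 to 90.8% of values within 0.15 of a whole fragment and 3 fragments as the floor, which is 0.0119 to 0.0987 FPKM at 8000 bases. The limma comparisons were tested on simulated data. Comparing outer medulla with cortex over 604 transcripts, the recovery was 37.3% at 2-fold, 74.6% at 4-fold and 78.8% at 8-fold, and 3 of 130 calls were false. Each simulated transcript had 1 normal spread shared by all tissues, as limma assumes. The 3 false calls therefore give no error rate for spreads that differ by tissue. For restriction to 1 tissue (1269 transcripts), 2.99%, 35.8% and 59.1% were recovered at these folds, with 0 of 65 calls false. Unchanged transcripts were simulated at the same mean in all tissues. Such flat transcripts can hardly pass all 5 comparisons, and transcripts equally high in 2 tissues were not simulated. The 0 false calls therefore say nothing on the rate of false restricted calls for such profiles.

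The transcripts, gene lists and tests were chosen with earlier results of these data known. Named transcripts were the 4 highest per tissue, the 3 longest, the 3 with the lowest and the 3 with the highest tau, the 5 largest called outer medulla minus cortex differences of each sign, their very long companions at a locus, and those next to the thresholds. Alternatives were other FPKM and length minimums, pseudocounts of 0.01 and 1, rescaled tissues, 5-fold and 10-fold rules of size, sums per locus, outer medulla and cortex averaged, a block for the column number and each column left out in turn. For outer medulla against cortex, another took the spread from the columns of these tissues alone. Leaving out adrenal gland column 2 with hypothalamus column 1, or all hypothalamus columns, was added after seeing the data. The result for 1 very long transcript beside a named gene is not reported here.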

Additional observations from a re-analysis of the deposited data

How the results depend on the processing

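A length minimum of 10000 bases left 92 of 145. With detection at 0.2 FPKM, outer medulla had 63, left ventricle 51, adrenal gland 56 and hypothalamus 53. At 1 FPKM outer medulla had 25, cortex 28, left ventricle 11, adrenal gland 19, hypothalamus 15 and liver 22, and rescaled tissues put hypothalamus first, with 44. Detected in no tissue were 16 at 0.2 FPKM and 61 at 1 FPKM. Summed per locus, 36 loci were detected in exactly 1 tissue and 17 in none. Median tau was 0.876 on FPKM, 0.861 with a floor, 0.859 after rescaling, 0.889 with outer medulla and cortex averaged, and 0.839 to 0.859 with each column left out. The column difference of shorter transcripts was 0.294 with a pseudocount of 1.

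A pseudocount of 0.01 gave 29 restricted transcripts, with 1 for outer medulla, 2 for cortex, 3 for left ventricle and 4 for adrenal gland. A pseudocount of 1 gave 5 for outer medulla and 14 for adrenal gland. The 10-fold rule gave 17 in all, with 0 for cortex and adrenal gland and 1 each for left ventricle and hypothalamus, and the 5-fold rule gave 2 for cortex and 3 for left ventricle. No FPKM minimum gave 8 for left ventricle. Without adrenal gland column 2 and hypothalamus column 1, 7 were restricted to cortex. With each column left out, the count was 7 to 11 for cortex and 3 to 5 for left ventricle. Higher in outer medulla than in cortex were 7 with no FPKM minimum, 0 at a pseudocount of 0.01, 2 after rescaling and 2 to 5 with each column left out. Lower were 1 and 15 at pseudocounts of 0.01 and 1, and 5 to 10 with each column left out. Summed per locus, TCONS_00114421 was highest in adrenal gland, by a log2 ratio of 1.04 over left ventricle (limma adjusted p = 0.036). The cause of these shifts was not tested.

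Of 44 named transcripts tested for restriction, 22 kept direction and call under every alternative run. The columns share only a number: over 15 tissue pairs, the correlation of same-number deviations was -0.071 to 0.128, with 1 pair above 0.1. With the column number as a replicate block, 51 were restricted, 3 were higher and 8 lower in outer medulla, and 1 named call was lost, TCONS_00093014 (limma adjusted p = 0.056). Liver column 2 had the lowest implied depth, with a floor of 0.0987 FPKM at 8000 bases. The part of depth in its low values was not tested.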
